A study of Homo sapiens with 6 samples.

Results

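The miR-106b-25 and miR-106a-363 clusters are paralogues of the miR-17-92 cluster: groups of miRNA hairpins that arose from a common ancestor by duplication and are cut from a shared primary transcript. Their main products were read as 7 members, chosen by name from 1891 human miRNA probes on the array. The miR-106b-25 cluster gave hsa-miR-106b-5p, hsa-miR-93-5p and hsa-miR-25-3p, and the miR-106a-363 cluster gave hsa-miR-106a-5p, hsa-miR-18b-5p, hsa-miR-20b-5p and hsa-miR-363-3p (the human prefix is dropped from here on). The arrays compared Lovo, SW620 and HT29, human colorectal cancer cell lines, each stably transfected with pSUPER gfp-neo carrying either shRNA-TGF-β1 (here knockdown) or shRNA-Control (here control). There was 1 array per line and vector, 6 in all, and each group was a single stably transfected culture. Both groups therefore carry the vector and its selection marker, and no untransfected cells were included in these 6 samples.

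The condition of each sample was read from its title. In 2 samples, HT29 knockdown and Lovo control, the label fields for the vector and the genotype name the opposite condition, and SW620 is the line whose labels all point 1 way. TGFB1 has no probe on a miRNA array, and the knockdown itself could not be checked. Of the 10 epithelial and gut miRNAs used to check the cell type, Lovo gave 8 detected in knockdown and 6 in control, SW620 gave 1 and 2, and HT29 gave 1 and 0. Most of these markers were thus below detection in SW620 and HT29, and all of them in the HT29 control. A probe counted as detected where the median foreground minus background intensity over its 4 spots was at least 50. On that rule 398 to 542 of the 1891 human probes were detected per array.

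A miRNA finds its targets mainly through its seed, bases 2 to 8. Members of the miR-17 seed family repress the cell cycle inhibitor CDKN1A (p21), the pro-apoptotic protein BIM and receptors and mediators of TGF-β signalling. The miR-106b-25 hairpins lie in an intron of MCM7, a replication gene driven by E2F, and are made with it. miR-25 and its seed relatives also target BIM and the inhibitory SMAD7. These clusters are widely reported as raised in colorectal and other epithelial tumours.

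The mature sequences show which members can share targets and which a hybridisation probe could confuse. They are from RefSeq on GRCh38.p14, 5′ to 3′, with the seed in capitals, and all 7 members were matched by name.
miR-106b-5p: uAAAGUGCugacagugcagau
miR-93-5p: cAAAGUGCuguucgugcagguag
miR-106a-5p: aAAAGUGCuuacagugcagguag
miR-20b-5p: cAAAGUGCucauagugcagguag
miR-18b-5p: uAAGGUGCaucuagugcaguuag
miR-25-3p: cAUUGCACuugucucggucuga
miR-363-3p: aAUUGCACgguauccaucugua
The seed AAAGUGC was shared by 4 members (miR-106b-5p, miR-93-5p, miR-106a-5p and miR-20b-5p), AUUGCAC by 2 (miR-25-3p and miR-363-3p), and AAGGUGC belonged to miR-18b-5p alone among the 7.

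The members are close copies of products of miR-17-92, whose sequences are shown for the comparison.
miR-17-5p: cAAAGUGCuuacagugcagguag
miR-18a-5p: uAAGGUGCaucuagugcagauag
miR-20a-5p: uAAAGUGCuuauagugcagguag
miR-92a-3p: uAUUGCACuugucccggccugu
Counted from the 5′ end of the member, miR-106a-5p differed from miR-17-5p at 1 base (A1C), and 22 of 23 bases were identical. The change from miR-18b-5p to miR-18a-5p was U20A, with 22 of 23 bases identical. miR-20b-5p differed from miR-20a-5p at 2 bases (C1U and C10U). miR-25-3p differed from miR-92a-3p at 4 bases (C1U, U14C, U18C and A22U). Whether each probe separates its member from these relatives was not tested, so values of such pairs are uncertain where both RNAs are present.

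In the genome the 3 hairpins of miR-106b-25 span 515 bases at chr7:100093560-100094074 on the minus strand of GRCh38.p14, all within MCM7 (chr7:100092728-100101397). The 6 hairpins of miR-106a-363 span 901 bases at chrX:134169378-134170278, also on the minus strand. That cluster holds second copies of miR-19b and miR-92a (MIR19B2 and MIR92A2), whose mature sequences are those of the copies in miR-17-92 on chromosome 13. Their signals cannot be assigned to 1 cluster, and miR-19b-3p and miR-92a-3p are given with miR-17-92.

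Of the 7 members, miR-106a-5p was detected on 6 of 6 arrays, miR-106b-5p and miR-20b-5p on 5, miR-25-3p on 4, miR-93-5p on 3, miR-18b-5p on 1 and miR-363-3p on 0. The HT29 control array detected 6 members, the HT29 knockdown array 2 and each of the other arrays 4. The 5 members detected on at least 2 arrays entered the test, together with all other human probes that met this rule, 570 in all. The detected member values closest to the cutoff of 50 were 52.5 and 56 (miR-106b-5p on the Lovo and SW620 control arrays), and the closest below it was 49 (miR-93-5p on the SW620 control array).

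**Figure D1:**
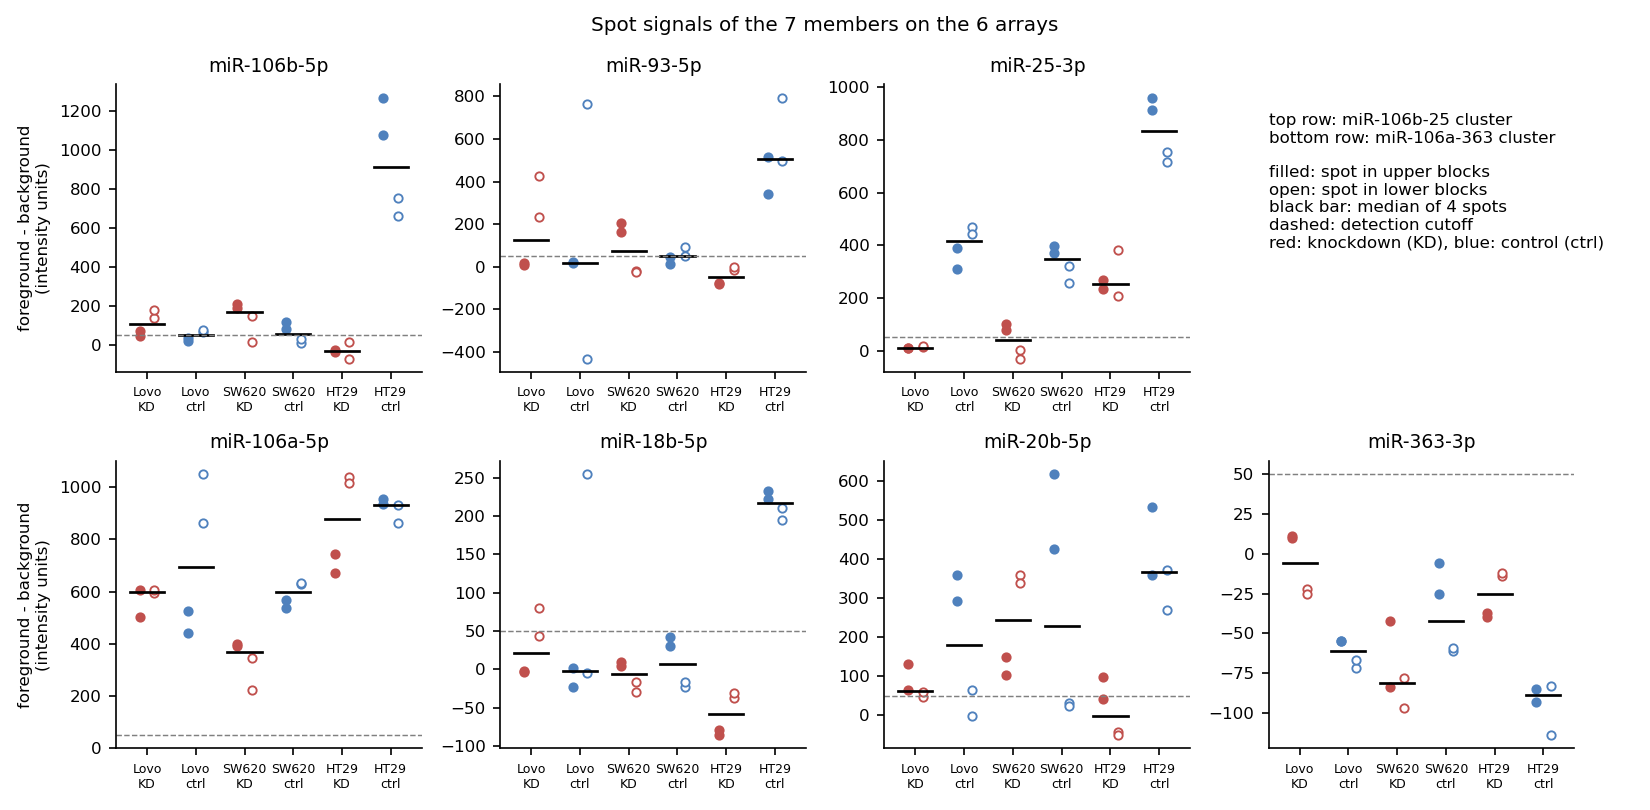
Foreground minus background intensity of each of the 4 spots (points) and their median (bar) for the 7 members on the 6 arrays, with the detection cutoff of 50 dashed. The HT29 control array gave the highest median of every member except miR-363-3p, which stayed below the cutoff on all arrays.

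In the miR-106b-25 cluster, miR-25-3p was lower in the knockdown sample of all 3 lines, whereas its cluster mates were lower only in HT29. The signal of miR-25-3p was 11.5 on the Lovo knockdown array against 416.5 on the control array, 40.5 against 346.5 in SW620 and 252 against 833 in HT29. Both lower values in Lovo and SW620 were under the detection cutoff, and the groups did not overlap: all 3 knockdown values lay below all 3 control values. After quantile normalisation, its control values were 9.12 ± 0.09 (log2, SE over 4 spots) in Lovo, 9.09 ± 0.10 in SW620 and 9.62 ± 0.08 in HT29. Its HT29 knockdown value was 8.84 ± 0.11. Each SE over spots, here and below, was taken from the log2 spot values before that normalisation. Lovo and SW620 control did not differ beyond their spot error. miR-25-3p was thus at least 3.07-fold higher in the control of Lovo and 2.31-fold higher in that of SW620. Such bounds were set against the higher of the knockdown array's lowest detected signal and the probe's own value there. In SW620 the probe's own value was the higher, so 2.31-fold is the plain fold between the arrays and not a lower limit. In HT29, where both arrays detected it, the knockdown minus control difference was -0.78 ± 0.14.

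Knockdown was compared with control over the 3 lines by limma, with the line as a block and p-values adjusted by Benjamini-Hochberg over the 570 probes. The test called 0 probes at an adjusted p under 0.05 (percent called 0), 50 (8.77%) had an unadjusted p under 0.05 and a lower value in knockdown, and 11 (1.93%) had one and a higher value. The mean log2 difference of miR-25-3p was -1.27 ± 0.34 (limma SE, 3 lines, group means 8.01 and 9.28), with an unadjusted p of 0.00534 and an adjusted p of 0.203. That was the 15th lowest mean of the 570, and miR-25-3p was the only member with an unadjusted p under 0.05. All 3 knockdown arrays lay below all 3 control arrays for 53 of the 570 probes (9.3%), miR-25-3p among them, so that such a separation was not rare. Its adjusted p fell under the threshold without the HT29 pair (-1.54, adjusted p 0.0350) and without the HT29 control array (-1.53, 0.0455), each of them a fit with 1 residual degree of freedom, and with the authors' value table (-3.15, 0.0413). With arrays aligned on spike-in control probes its difference in HT29 turned to 1.07 and the limma unadjusted p over all lines was 0.413.

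The summed signal of the 5 mesenchymal miRNA probes was also lower on the knockdown array of each line. It was 334.5 on the Lovo knockdown array against 2550.5 on the control, 1534 against 4801 in SW620 and 1776.5 against 4809.5 in HT29. miR-199a-5p, detected on all 6 arrays, made up most of each sum, and miR-143-3p was under the cutoff on 5 arrays. In SW620 the sum followed miR-199a-5p and miR-145-5p, while miR-214-3p (391 in knockdown against 261.5), the shared probe of miR-199a-3p and miR-199b-3p (191.5 against 24) and miR-143-3p (33.5 against -1) read higher in knockdown. In Lovo the summed signal of the 10 epithelial markers went the other way, at 8854.5 in knockdown and 1370 in control. It was led by miR-141-3p (4531 against 245.5) and miR-192-5p (1912.5 against 242). However, miR-375 (386 against 494) and miR-200b-3p (159 against 201.5) read lower in Lovo knockdown, and miR-215 and miR-203a were under the cutoff on both arrays. The epithelial sums were 102.5 and 386 in SW620 and 137.5 and 32.5 in HT29. The part of these cell type markers in the members' results, in Lovo and elsewhere, was not tested. The HT29 control array detected all 5 mesenchymal probes and none of the 10 epithelial ones. Each array read a culture of a single line, not a mix of tissue cell types. Whether fewer cells carried such a miRNA or each cell held less of it cannot be told from such a culture.

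miR-106b-5p, the leading member of its cluster and a repressor of CDKN1A, gave signals of 105 and 52.5 on the knockdown and control arrays of Lovo, 168.5 and 56 in SW620, and -30 and 912.5 in HT29. Knockdown was thus the higher array in Lovo and SW620, and the lower one in HT29, where only the control array detected it. On the normalised scale the difference was 0.16 ± 0.23 in Lovo, smaller than its spot error, and 0.66 ± 0.27 in SW620. In HT29 it was at least 4.64-fold higher in the control. The mean over lines was -0.55 ± 0.54 (limma adjusted p 0.720), and 0.42 without the HT29 pair.

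miR-93-5p, which shares the seed and lies on the same transcript, followed miR-106b-5p. Its signals were 126 and 19.5 on the knockdown and control arrays of Lovo, 72.5 and 49 in SW620, and -46.5 and 508.5 in HT29. It was at least 3.27-fold higher in the control of HT29. The differences of 0.32 ± 1.01 in Lovo and 0.39 ± 0.33 in SW620, where only the knockdown arrays passed the cutoff, were within about their spot error. As plain folds they were 1.25 and 1.31. Spots disagreed in both lines: the Lovo control spots read 17, 22, -432 and 765, and the SW620 knockdown spots 163, 205, -18 and -24. The sign turned with the upper-block spots in Lovo (-0.39) and with the lower-block spots in SW620 (-0.60). The mean over lines was -0.46 ± 0.47 (limma adjusted p 0.736), and 0.37 without the HT29 pair.

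In the miR-106a-363 cluster, miR-106a-5p was detected on every array, with quantile-normalised differences of either sign. In HT29, miR-18b-5p and miR-20b-5p were detected on the control array and not on the knockdown array. The signals of miR-106a-5p were 600 and 694 on the knockdown and control arrays of Lovo, 369.5 and 597 in SW620, and 879.5 and 932.5 in HT29. Every array lay far above the cutoff and the groups overlapped. The difference was 0.09 ± 0.24 in Lovo, below 0 in SW620 at -0.78 ± 0.12, and 0.31 ± 0.13 in HT29, and the mean over lines was -0.13 ± 0.40 (limma adjusted p 0.924). Without the SW620 pair the mean was 0.19.

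miR-20b-5p, a member with the AAAGUGC seed, gave 62.5 and 179.5 on the knockdown and control arrays of Lovo, 244.5 and 230.5 in SW620, and -0.5 and 366.5 in HT29. It was 2.71-fold higher in the HT29 control, a plain fold and not a lower limit. The differences in Lovo (-0.49 ± 0.43) and SW620 (0.14 ± 0.61) were within about their spot error. In SW620 the spots in the upper and lower blocks of the array went opposite ways: the mean control signal was 523.5 above and 28 below, and the mean knockdown signal 127 above and 349.5 below. The SW620 difference was accordingly -0.99 from the upper spots and 1.32 from the lower ones. The mean over lines was -0.60 ± 0.35 (limma adjusted p 0.578), -1.12 from the upper spots and -0.071 from the lower ones.

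miR-18b-5p gave 21 and -1.5 on the knockdown and control arrays of Lovo, -6.5 and 6.5 in SW620, and -58.5 and 217 in HT29. Only the HT29 control array detected it, at least 2.10-fold above the knockdown array. The bound of 1.26-fold for the control group rested on that 1 array of 3, as the Lovo and SW620 controls were under the cutoff. It is therefore no minimum fold for the group. miR-363-3p, which has the seed of miR-25-3p, ran from -89 (HT29 control) to -6 (Lovo knockdown) and was not well above background anywhere. Neither entered the test.

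**Figure D2:**
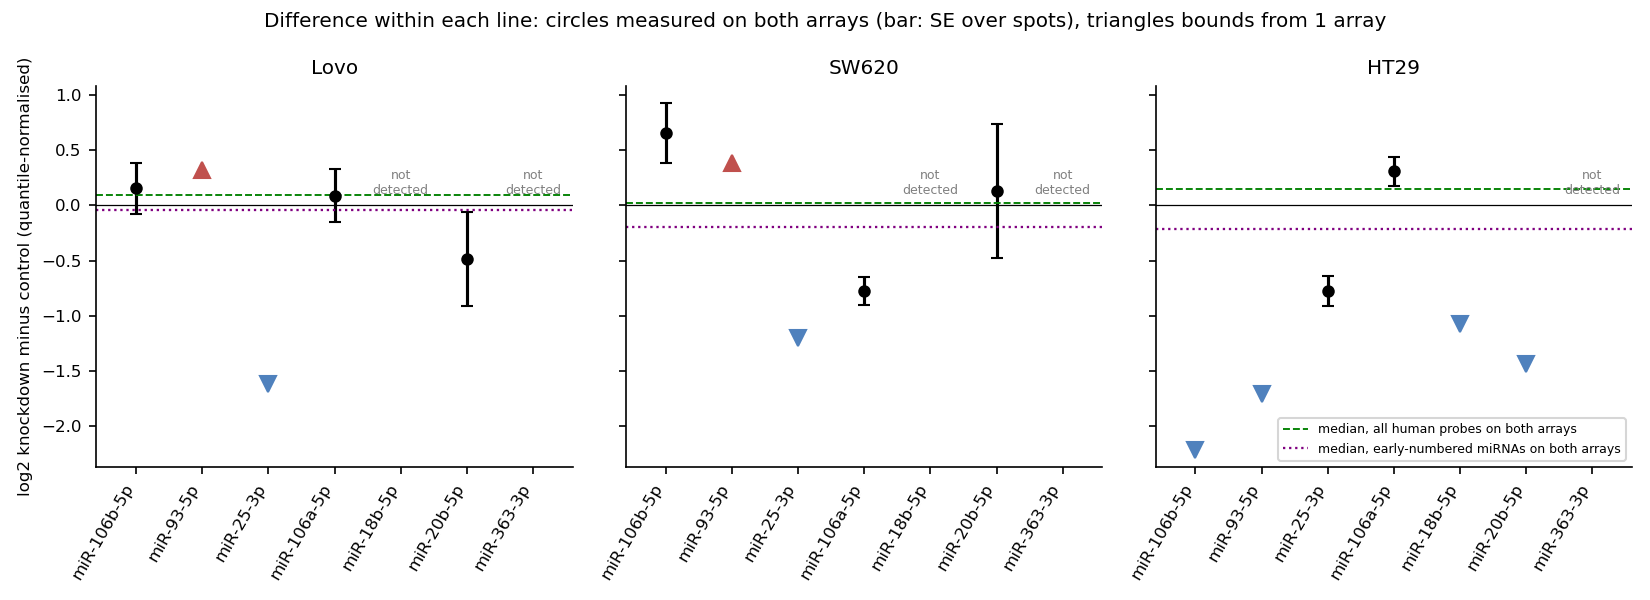
Log2 difference, knockdown minus control, of the 7 members in each line: circles with SE over spots where both arrays detected the member, triangles for the bound where 1 array did. Downward triangles mark 4 members in HT29, and miR-25-3p is the member below 0 in every line.

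Losses of detection in HT29 were also frequent among early-numbered miRNAs, those with a registry number up to 500 together with let-7. In HT29, 4 of the 6 members detected on the control array (66.7%) were not detected on the knockdown array, against 107 of 425 human probes (25.2%) and 71 of 157 early-numbered ones (45.2%). In SW620 the members' share was 1 of 4 (25%) against 26.7% of human and 27.3% of early-numbered probes, and in Lovo 1 of 4 against 15.2% and 20.8%. The members' share was near the background in SW620. Among probes detected on both arrays, the HT29 median difference was -0.23 over 2 members, 0.15 over 318 human probes and -0.21 over 86 early-numbered ones. The same medians were 0.09 (3 members), 0.09 and -0.04 in Lovo, and 0.14 (3 members), 0.02 and -0.20 in SW620. Lower in knockdown, among those on both arrays, were 1 of 3 members in Lovo (43.4% of probes), 1 of 3 in SW620 (47.6%) and 1 of 2 in HT29 (38.1%). A 2-fold difference on both arrays was reached by 0 members in any line, against 6.37% of probes lower and 6.13% higher in Lovo, 8.15% and 6.25% in SW620, and 6.92% and 5.03% in HT29.

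Over the 3 lines the mean difference was below 0 for 5 of 5 tested members, with a median of -0.55. It was below 0 for 257 of all 570 probes (45.1%, median 0.05) and for 124 of 188 early-numbered ones (66%, median -0.27). Lower values in all 3 lines were found for 1 member, miR-25-3p, and for 98 of 570 probes (17.2%). Higher values in all 3 lines were found for 0 members and 101 of 570 probes (17.7%). Without the HT29 pair the means of miR-106b-5p and miR-93-5p were above 0, and those of the other tested members stayed below 0.

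The HT29 values depended on how the arrays were aligned. The 16 spike-in control probes had a median signal of 700.5 on the HT29 knockdown array and 3863.25 on the control array. Alignment on them moved the median of all probes detected on both HT29 arrays from 0.15 to 2.10. Under it, miR-18b-5p (0.45) and miR-20b-5p (0.59) lay above 0 in HT29, while miR-106b-5p (-0.57) and miR-93-5p (-0.14) stayed below 0. Set against unnormalised values, this alignment adds the same constant to every difference in a line. Other small RNAs went the way of the members in HT29: of 23 small nuclear, nucleolar and ribosomal RNA probes, 12 were detected on both arrays with a median difference of -0.90, and 5 on the control array only. Their part in the members' result was not tested.

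**Figure D3:**
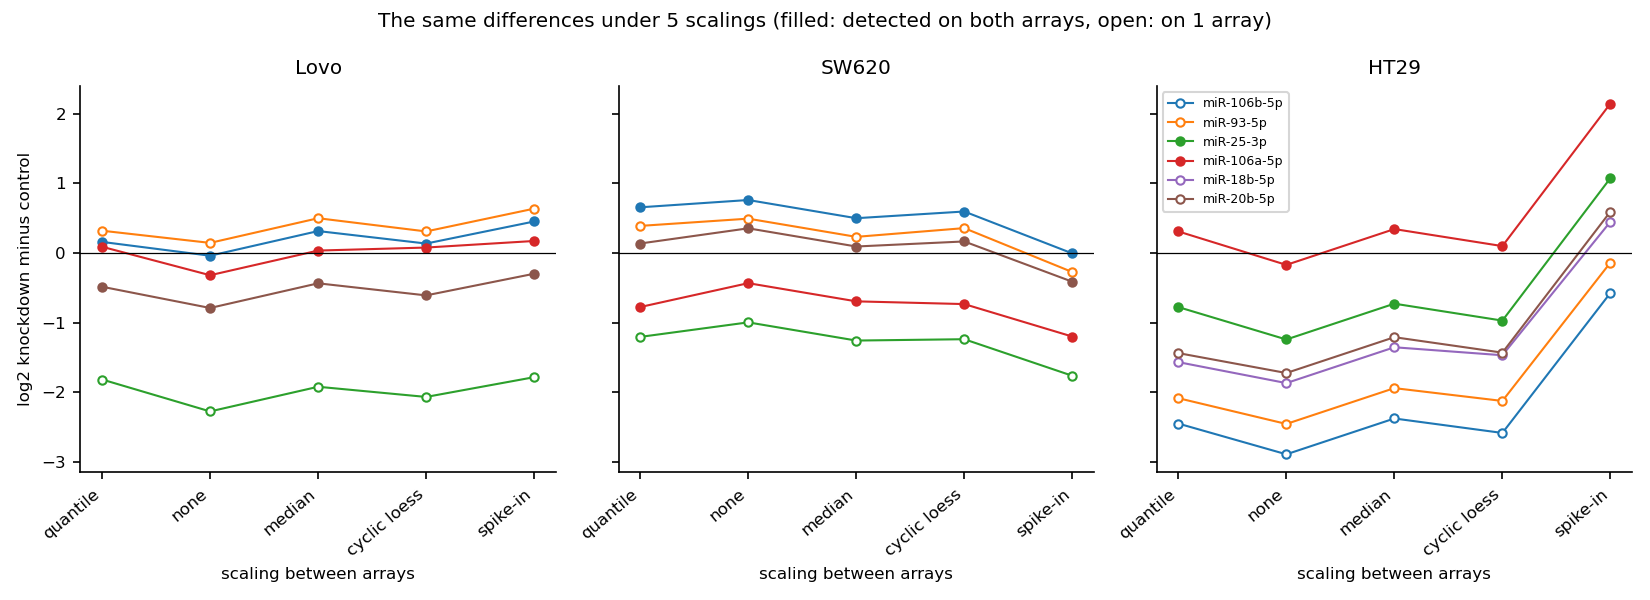
Log2 difference, knockdown minus control, of the 6 members detected on at least 1 array, in each line under 5 alignments of the arrays; filled points were detected on both arrays of the line, open points on 1. In HT29 spike-in alignment lifts every member, and miR-25-3p goes from -0.78 to 1.07.

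The other strand of each hairpin was measured by its own probe. The hairpin of miR-25 shows the pair, with the other arm, miR-25-5p, in capitals, from the minus strand of chr7:100093560-100093643.
MIR25: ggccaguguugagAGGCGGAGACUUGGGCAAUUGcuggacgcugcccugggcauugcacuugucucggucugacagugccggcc
Signals of miR-25-5p were 345.5 and 256.5 on the knockdown and control arrays of Lovo, 440.5 and 138 in SW620, and 346 and 310 in HT29. All 3 knockdown values lay above all 3 control values, as for 42 of the 570 probes (7.37%). Its differences were 0.36 ± 0.20, 1.00 ± 0.12 and 0.32 ± 0.30, and the mean of 0.56 ± 0.34 did not pass the limma test (adjusted p 0.578). The signs were opposite to those of miR-25-3p in the 3 lines, a difference that was not tested. In HT29 the miR-25-5p spots disagreed, with mean knockdown and control signals of 479 and 161 in the upper blocks and 257.5 and 462 in the lower ones, and spike-in alignment put miR-25-3p above 0 there (1.07).

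The other arm of the miR-106b hairpin, miR-106b-3p, gave 47 and 58 on the knockdown and control arrays of Lovo, 18.5 and 112 in SW620, and 23 and 103.5 in HT29. It was under the cutoff on the 3 knockdown arrays and above it on the 3 control arrays, and so entered the test through the control arrays alone. All 3 knockdown arrays lay below all 3 control arrays, as for 53 of the 570 probes (9.3%). In Lovo both values lay close to the cutoff, and a negative control probe reached 57.5 on the Lovo knockdown array. miR-106b-3p read 1.18-fold, 1.26-fold and 1.40-fold higher in control, plain folds and not lower limits (log2 SE over spots 0.10, 0.11 and 0.06). Its sign was that of miR-106b-5p in HT29 and the opposite one in Lovo and SW620. Its mean over lines was -0.35 ± 0.26 (limma adjusted p 0.615).

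For 2 hairpins of the miR-106a-363 cluster the other arm was detected on most arrays although the member was detected on 1 or none. They are shown with that arm in capitals, from the minus strand of chrX:134170041-134170111 and chrX:134169378-134169452.
MIR18B: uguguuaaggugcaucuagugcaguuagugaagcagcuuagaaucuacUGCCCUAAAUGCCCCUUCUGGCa
MIR363: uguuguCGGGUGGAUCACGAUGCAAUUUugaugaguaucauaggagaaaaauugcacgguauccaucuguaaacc
Signals of miR-18b-3p were 552.5 and 371.5 on the knockdown and control arrays of Lovo, 168.5 and 349.5 in SW620, and 626 and 43.5 in HT29. In HT29 the miR-18b-3p spots read 153, 95, 1099 and 1153 in knockdown and 46, -757, 42 and 45 in control, a difference of 2.18 ± 0.82 (at least 3.47-fold by the rule for bounds, which leaves out this spread). Its mean over lines was 0.76 ± 0.51 (limma adjusted p 0.594). Signals of miR-363-5p were 389 and 742 on the Lovo arrays, 24.5 and 103.5 in SW620, and 75 and 74.5 in HT29. The probes for miR-93-3p and miR-106a-3p were detected on 0 arrays, and that for miR-20b-3p on 1 (61.5, Lovo knockdown).

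**Figure D4:**
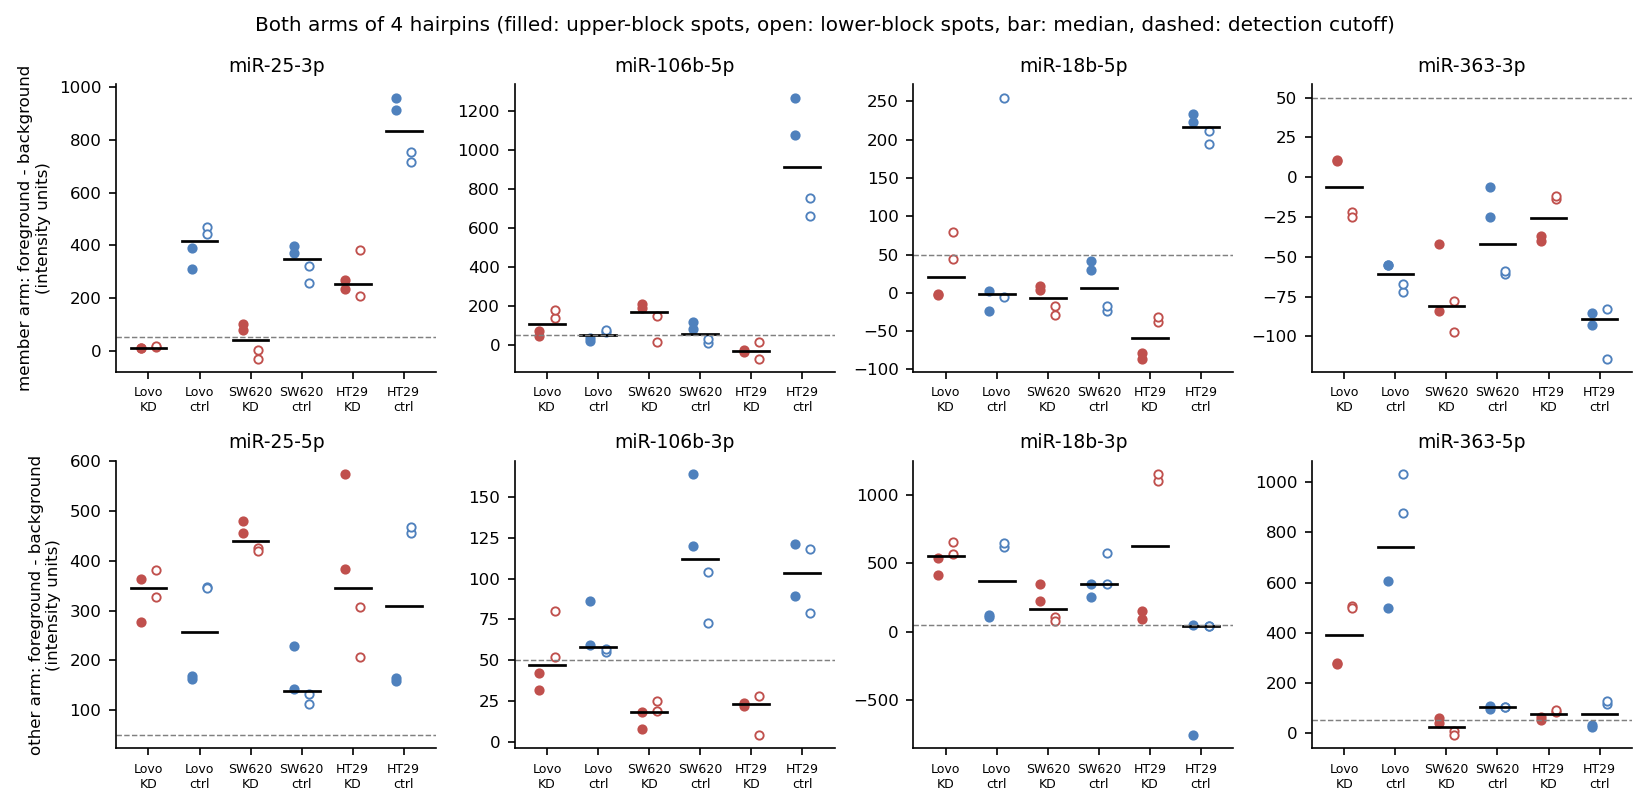
Foreground minus background intensity of each of the 4 spots and their median for both arms of 4 hairpins on the 6 arrays, members above and other arms below, each panel with its own axis. The median signal of miR-25-5p was higher in the knockdown sample of each line, where that of miR-25-3p was lower, and its HT29 spots overlapped.

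Between lines, 0 of the 5 tested members passed the limma F-test, which compared the 3 lines with the vector as a block and called 0 of 570 probes (percent called 0, smallest adjusted p 0.485). By unadjusted p under 0.05, 32 probes passed (5.61%) and none of the tested members did. The nearest was miR-25-3p, highest in HT29 by 0.88 ± 0.36 (limma SE) over the mean of Lovo and SW620, with an unadjusted p of 0.0397 for that contrast, an adjusted p of 0.960, and an unadjusted F-test p of 0.0942. The adjusted F-test p-values of the others were 0.957 for miR-106b-5p, 0.978 for miR-93-5p, 0.941 for miR-106a-5p and 0.907 for miR-20b-5p. Their highest lines were HT29 for miR-106b-5p, miR-93-5p and miR-106a-5p and SW620 for miR-20b-5p. None of these orders stood out from the spread left after the vector block. Of the other arms, miR-363-5p was highest in Lovo by 1.46 ± 0.32 (unadjusted p 0.00163, adjusted p 0.149 by limma).

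Within the control samples alone, HT29 had the highest normalised value of miR-106b-5p, at 9.73 ± 0.17 against 7.76 ± 0.09 in Lovo and 7.71 ± 0.17 in SW620. miR-93-5p stood at 9.22 ± 0.17 in the HT29 control, and the other control arrays did not detect it. For miR-20b-5p the order was HT29 (8.98 ± 0.12), SW620 (8.54 ± 0.57) and Lovo (8.25 ± 0.40), with neighbours within about 1 spot error. miR-106a-5p was level over the control samples, between 9.68 ± 0.24 in Lovo and 9.74 ± 0.05 in SW620. These are single arrays, and no test applies.

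Some cluster mates had like profiles and others did not. Likeness was measured as the root mean square difference of the 6 normalised log2 values, each probe centred on its own mean, where 0 means the same profile. The pair miR-106b-5p and miR-93-5p, of 1 transcript and 1 seed, differed by 0.20. Both peaked on the HT29 control array (9.73 and 9.22), and miR-93-5p was detected on only 3 arrays. The distance of miR-25-3p, the remaining member of that transcript, from miR-106b-5p and miR-93-5p was 0.93 and 0.91. miR-18b-5p, of the other cluster, differed from miR-93-5p by 0.23, a value carried by the HT29 control array, the only one that detected it. In the miR-106a-363 cluster, miR-18b-5p and miR-20b-5p differed by 0.34, and miR-106a-5p and miR-20b-5p by 0.74. The distance of miR-106a-5p to the undetected miR-363-3p was 0.29. However, miR-106a-5p varied by only 0.33 about its own mean, which is its distance to a flat profile, so 0.29 shows little likeness.

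Among all tested probes, the profiles nearest to miR-106b-5p were miR-34a-5p (0.17), miR-93-5p (0.20) and miR-15b-5p (0.22), against a median distance of 0.90 over 6 arrays. Those nearest to miR-25-3p were miR-148a-3p (0.16), miR-142-5p (0.16) and miR-4286 (0.27). miR-142-5p, abundant in blood cells, gave -16.5 and 305.5 on the knockdown and control arrays of Lovo, 36.5 and 320 in SW620, and 207 and 493.5 in HT29. The list of 7 blood miRNAs it belongs to summed to 428 and 766.5 in Lovo, 1407 and 1798 in SW620, and 571.5 and 3267.5 in HT29, with miR-144-3p and miR-223-3p detected on 0 arrays. These sums followed miR-142-3p and miR-142-5p. In Lovo miR-150-5p (249 against 124) and miR-486-5p (149 against 72) read higher in knockdown, as did miR-451a in SW620 (146 against -35). In HT29 miR-150-5p (100 against 87.5) also read higher in knockdown, and so did miR-486-5p, under the cutoff on both arrays (47.5 against 6). The part of miR-142-5p in the miR-25-3p result was not tested. miR-26b-5p (0.16), miR-4654 (0.18) and miR-3148 (0.18) were nearest to miR-20b-5p, against a median distance of 0.65. For miR-106a-5p they were miR-5693, miR-718 and miR-5681b (0.20 each), against a median of 0.51 and a distance of 0.33 to a flat profile. Of these nearest probes, miR-34a-5p, miR-718 and miR-3148 were detected on 2 of 6 arrays, and miR-93-5p, miR-15b-5p and miR-5693 on 3. Their likeness thus rests in part on values under the cutoff.

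Products of the third paralogue cluster, miR-17-92, were lower in knockdown on average for 5 of 5 tested, with a median mean difference of -0.68, beside 45.1% of all 570 probes (median 0.05) and 66% of early-numbered ones (median -0.27), and 0 passed the adjusted limma test. miR-17-5p gave 149 and 252.5 on the knockdown and control arrays of Lovo, 286 and 356 in SW620, and 62 and 662 in HT29. Its Lovo spots disagreed, with mean knockdown and control signals of 634.5 and 677.5 in the upper blocks and 32 and 39 in the lower ones. In HT29 its difference was -1.23 ± 0.59, while that of miR-106a-5p, which differs from it by a single base, was 0.31 ± 0.13. miR-19b-3p gave 90.5 and 177 in Lovo, 192.5 and 528.5 in SW620, and -22 and 1016 in HT29, with a mean of -1.31 ± 0.41 (limma adjusted p 0.262). miR-19a-3p gave 65.5 and 115 in Lovo, 390 and 145.5 in SW620, and -33.5 and 974 in HT29, with a mean of -0.68 ± 0.56 (limma adjusted p 0.645). miR-20a-5p, close in sequence to miR-20b-5p, gave 2501 and 4578.5 in Lovo, 904 and 3814 in SW620, and 1248.5 and 3824 in HT29. All 6 medians lay far above the cutoff, and its mean had an unadjusted p of 0.0243 and an adjusted p of 0.355 by limma. Its SW620 knockdown spots disagreed, with means of 1583 in the upper blocks and 146.5 in the lower ones. The SW620 difference was -2.30 ± 0.78. miR-92a-3p, which shares the seed of miR-25-3p, gave 71.5 and 302.5 in Lovo, 150.5 and 134.5 in SW620, and -20.5 and 314.5 in HT29. In SW620 the upper and lower spots of miR-92a-3p and miR-19a-3p went opposite ways. Mean knockdown and control signals of miR-92a-3p were 57 and 319.5 in the upper blocks and 223.5 and 20.5 in the lower ones. Those of miR-19a-3p were 207.5 and 273.5 in the upper blocks and 550 and 26.5 in the lower ones. miR-18a-5p, nearly the same sequence as miR-18b-5p, was detected on 0 arrays, the HT29 control included. Of the other arms of this cluster, miR-18a-3p was detected on the Lovo (69) and HT29 (66.5) knockdown arrays and miR-92a-2-5p on the SW620 control array (58.5).

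**Figure D5:**
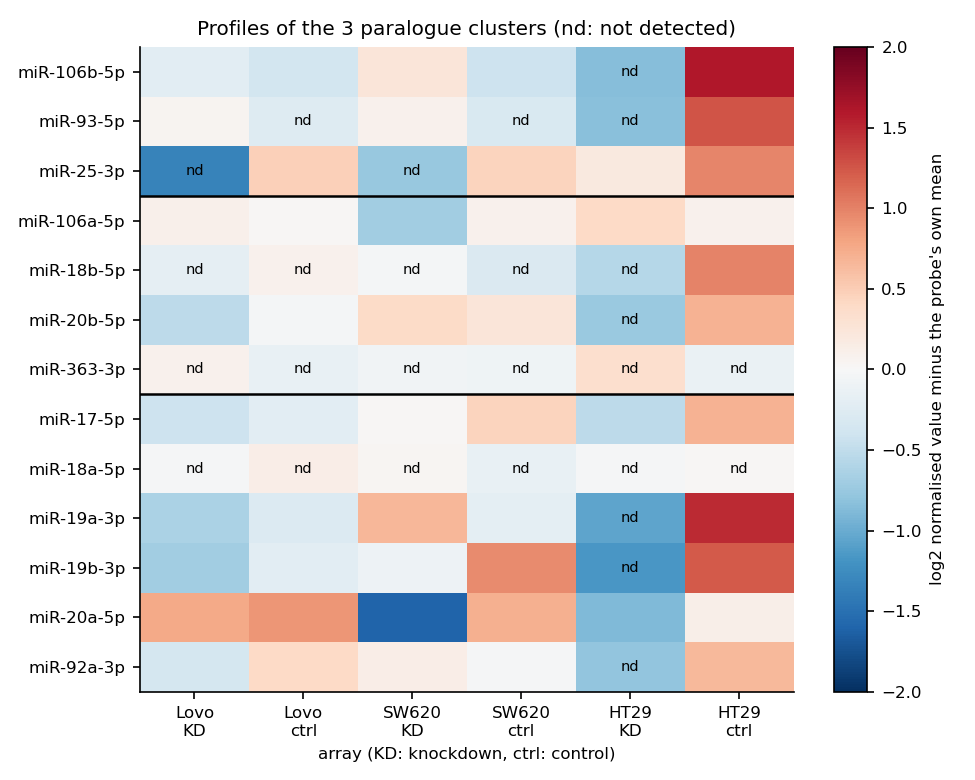
Normalised log2 value minus the probe's own mean over the 6 arrays, for the members (upper 2 blocks) and miR-17-92 (lower block); nd marks an array that did not detect the probe. miR-106b-5p and miR-93-5p share a pattern with their peak on the HT29 control array, and miR-25-3p has its lowest values on the Lovo and SW620 knockdown arrays.

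Outside the 3 clusters, 8 probes for miRNAs with the same or a related seed were read, and 3 of them were tested. miR-92b-3p, with the seed AUUGCAC, gave 133.5 and 26 on the knockdown and control arrays of Lovo, -12 and 80.5 in SW620, and 263 and -9 in HT29. miR-32-5p, with the same seed, gave -18.5 and -3, 66 and -8, and -74 and 312.5 in the same order. The HT29 knockdown spots of miR-92b-3p disagreed, at 20, 2, 506 and 543. miR-302a-3p, a miRNA of pluripotent cells whose seed AAGUGCU is none of the members' seeds, was detected on all 6 arrays, with signals of 682 and 1025 in Lovo, 876.5 and 428 in SW620, and 856 and 636 in HT29. The SW620 knockdown spots of miR-302a-3p disagreed, with means of 269 in the upper blocks and 1460.5 in the lower ones. The mean differences of miR-92b-3p, miR-32-5p and miR-302a-3p were 0.39 ± 0.33, -0.42 ± 0.45 and 0.35 ± 0.38. They had adjusted p-values of 0.650, 0.741 and 0.744 by limma. The remaining probes, for miR-367-3p, miR-372, miR-373-3p, miR-519d and miR-526b-3p, were under the cutoff on every array. miR-367-3p lies beside miR-302a on chromosome 4.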

How the data were processed

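Total RNA was labelled with Hy3 and hybridised to 1-colour arrays of locked nucleic acid probes, per the labels' protocols. Each array has 15840 spots in the raw table, given per the file headers as deposited foreground intensity and as foreground less background intensity. No scanner, image software or background measure is named in the sources used here. The authors' value table holds a linear ratio, not centred per probe: the median foreground minus background over spots divided by 1 factor per array. That relation held within 1% for 100% of values, with factors of 282.75 to 353.75 whose origin is unknown, and column medians of 0.372 and 0.493 (Lovo knockdown and control), 0.551 and 0.446 (SW620), and 0.537 and 0.638 (HT29).

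Here intensities were background-corrected by normexp (offset 50), put on the log2 scale, averaged over spots and quantile-normalised with limma 3.58.1 in R 4.3.3. Control spots were left out of the normalisation. Human probes detected on at least 2 arrays were tested (lmFit, then eBayes with a trend, 2 residual degrees of freedom), two-sided, with the line (or the vector, between lines) as a block and Benjamini-Hochberg adjustment over 570 probes. Within a line there is no test, and the SE over spots is technical error only. That SE was computed on log2 spot values before quantile normalisation. It takes the 4 spots as independent, although upper-block and lower-block spots differed for some probes. Arrays carry no counts, so their number limits the precision. A bound compares the bright array, or the bright group's mean, with the higher of the dim array's lowest detected signal and the dim probe's own value. Where the probe's own value is the higher, the result is the plain fold and not a lower limit. Per the labels, cultures were grown and harvested separately.

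The text names all 7 members, then the other arms, miR-17-92 with its other arms and relatives of the same or a related seed where detected on at least 1 array, and the 3 tested probes nearest in profile to each member detected on at least 4 arrays. Seed relatives under the cutoff on every array are named without values. Marker lists were epithelial (10), blood (7) and mesenchymal (5). The members and lists were chosen with earlier results of these data known. Alternatives covered background correction, alignment, spot averaging, the value table, cutoffs, the variance model, the block, leaving out arrays and, added after seeing the data, upper-block or lower-block spots alone. The fit was tested on simulated data. Of 28 miRNA names, 25 matched a RefSeq sequence.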

Additional observations from a re-analysis of the deposited data

Results flagged for a closer look

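In 2 members, a pair of lines went opposite ways by more than 2 SE over spots each. For miR-106b-5p the knockdown minus control difference was 0.655 (log2) in SW620 and -2.45 in HT29, where the knockdown array did not detect it, so that the latter is a fitted value (the bound is 4.64-fold higher in control). For miR-106a-5p it was -0.777 in SW620 and 0.309 in HT29, with both arrays above the cutoff in both lines. With 1 array per group the difference between lines was not tested. No member differed at least 2-fold in opposite directions between lines among those detected on all 4 arrays. The sign of miR-106a-5p in HT29 changed without normalisation between arrays and with upper-block spots only, and that of miR-106b-5p in SW620 changed with spike-in alignment (-0.0066).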

How the results depend on the processing

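Across lines the count of called probes was 0 in 14 of 25 settings. It was 11 with median scaling, 5 with cyclic loess, 10 with the authors' value table, 6 with robust eBayes and 2 without the zero-variance probe, and it ran from 0 to 26 when 1 pair or array was left out (25 without the SW620 or HT29 pair, 26 without the SW620 knockdown or the HT29 control array, 23 without the HT29 knockdown and 18 without the SW620 control array). Without the replicate block, that is with no cell line term, it was 0, and miR-25-3p had an unadjusted p of 0.0125. Between lines the count was 12 with median scaling, 1 with cyclic loess, spike-in alignment or lower-block spots, 3 with the value table, 2 with robust eBayes, and 0 to 21 with 1 array left out. A member was called in 3 settings, miR-25-3p each time. Its mean kept its sign in 24 of 24 settings (-3.89 to -0.82), as did that of miR-20b-5p (-1.36 to -0.040). Settings that changed only the cutoff, the filter, the variance model or the block leave a mean as it is. They are among the 24 and could not turn a sign. Means that turned were those of miR-93-5p (0.074) and miR-106a-5p (0.37) with spike-in alignment, miR-106b-5p (1.24) and miR-93-5p (1.53) with the value table, whose HT29 knockdown cells are empty, and, with 1 pair or array left out, miR-106b-5p (0.41 to 0.42) and miR-93-5p (0.36 to 0.37) without HT29, and miR-106a-5p (0.19 to 0.21) without SW620. Over all such fits these 3 ran from -1.17 to 0.42, -0.90 to 0.37 and -0.34 to 0.21. The median of the measured members moved in Lovo to -0.32 without normalisation, 0.43 with the value table and -0.42 with upper-block spots. In SW620 it moved to 1.18 with plain subtraction, -0.41 with spike-in alignment, -0.63 with the value table, -0.32 at a cutoff of 100, -0.54 with upper-block and -1.23 with lower-block spots. In HT29 it moved to -0.71 without normalisation, -0.44 with cyclic loess, 1.61 with spike-in alignment, -1.11 with upper-block and 0.019 with lower-block spots. Beyond the empty cells and the arrays left out, the cause was not tested.

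Of 24 detected member values, 4 (16.7%) differed at least 2-fold between upper and lower spots, against 3.76% to 25.1% of detected human probes per array. Of 15 line contrasts of tested members, 13 changed sign under at least 1 setting. The 7 negative control probes reached 57.5 on the Lovo knockdown array, so values near 50 there, and folds of dim members in general, are limited by background. The opposing labels of the Lovo control and HT29 knockdown samples leave the directions in those lines resting on the titles. Each line gave 1 array per vector, so nothing within a line has a replicate check.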
